A study of Homo sapiens with 4 samples.

Results

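The state that 2 hepatocellular carcinoma (HCC) cell lines reached under arsenic trioxide (ATO) was compared on 2 of the 4 arrays of the series, ATO-treated Huh7 and ATO-treated Hep3B. ATO had been given to both lines at 3 μM for 7 days. The remaining 2 arrays, Huh7 and Hep3B given DMSO as the negative control, served only as reference for the gap between the lines without the drug. Both lines are established human cell lines, grown as cultures of tumor cells without the stroma, vessels and immune cells of a liver. Each condition had 1 array per line, so no difference has an error of its own and no p-value is given.

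All 19775 genes that a probe set names alone were compared, each read from its brightest such probe set over the 4 arrays. On these arrays several short probes together read 1 transcript and form a probe set, whose intensity is given here on a linear scale. The line gap of a gene is its intensity in Huh7 over that in Hep3B, or the log2 of this ratio. Intensities of different genes come from different probes and were not set against each other. A value under 15.99, the median of all probe sets, is called dim here, since no background or detection call was used, and the size of a ratio with a dim side is uncertain.

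HCC arises from hepatocytes, which make most plasma proteins, convert ammonia to urea, release glucose and conjugate foreign compounds. HCC lines keep different parts of this program and often switch on fetal liver genes such as alpha-fetoprotein. Arsenic binds thiol groups and raises oxidative stress, to which cells answer through the transcription factor NRF2, metallothioneins, heat shock proteins and the integrated stress response.

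Both ATO arrays carried hepatocyte transcripts, and the line labelled Huh7 had less of several. Of 10 measured hepatocyte markers none was dim on both ATO arrays, and their summed intensity was 30157 in Huh7 and 64035 in Hep3B. SERPINA1, the antitrypsin gene, read 10211 in Huh7 and 6689 in Hep3B with ATO, and APOB, the scaffold of lipoproteins, 4056 and 4026. Huh7 is generally described as a line that secretes albumin and alpha-fetoprotein. The array labelled ATO Huh7 read ALB at 358 and AFP at 62.1, against 10729.9 and 1646 on the array labelled ATO Hep3B, and its low values go against that description. Whether the label names the line was not tested, and Huh7 and Hep3B stand below for the names on the labels. Of 8 endothelial markers 7 were dim on both ATO arrays and 1, PECAM1, read 18.7 and 16.2. The 8 markers of stellate cells and fibroblasts summed to 189 in Huh7 and 188 in Hep3B with ATO, with 4 of the 8 dim on both arrays. The 6 leukocyte markers summed to 293 and 93.8, with LYZ, a lysozyme gene, at 234 and 30.3, and 2 of the 6 were dim on both arrays. The 7 cholangiocyte markers summed to 556 and 1734, and KRT19 made most of the sum in Hep3B. In a whole culture, fewer cells with a transcript and less transcript per cell cannot be told apart.

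Per the methods, the values had been normalized between arrays. Similar medians and a small median gap largely follow from that step, so they are not a check of the arrays. The median intensity of the 54675 probe sets lay between 15.8 and 16.3 on the 4 arrays. Over the 19775 genes the median log2 line gap was 0.03 with ATO and 0.04 on the controls. The 9 hybridization control probe sets had a median log2 gap of -0.06 between the ATO arrays, and the 27 poly-A control probe sets, which follow RNA added before labeling, 0.23. The difference of 3' and 5' control probe sets of GAPDH, which tracks RNA integrity, differed between the 2 ATO arrays by -0.09 on the log2 scale and that of ACTB by -0.01. For ACTB the 3' minus 5' value itself was 2.07 in Huh7 and 2.09 in Hep3B with ATO, and 2.14 and 2.06 on the controls. The 3' set of ACTB was thus over 4 times the 5' set on all 4 arrays. For GAPDH it was 0.17 and 0.27 with ATO. A small difference between arrays does not show that the RNA was intact.

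On the ATO arrays 457 genes, 2.31% of all, were at least 4 times higher in Huh7, and 603 genes, 3.05%, were at least 4 times higher in Hep3B. Another 9856 genes, or 49.8%, were alike, that is within a log2 gap of -0.32 to 0.32, and the other 8859 lay between. In either direction 5.36% of all genes were past 4 times. Much of the likeness was among genes read at low intensity. Of the 6448 genes dim on both ATO arrays 75.9% were alike, whereas of the remaining 13327 genes 37.3% were. Of the 1475 genes with an intensity of at least 1000 on an ATO array, 537 were alike and 100, or 6.78%, differed by 4 times or more.

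Of the 1060 genes that differed by 4 times or more, 518 were above the median probe set on both ATO arrays, 242 of them higher in Huh7 and 276 in Hep3B. In 542 the lower line was dim. At 16 times or more there were 94 genes higher in Huh7 and 142 in Hep3B, and at 64 times or more 25 and 23. The log2 gap ran from 7.80 for DNAJC15 in Huh7 to -9.13 for MGST1 in Hep3B. Just inside the threshold lay LAS1L, 913 in Huh7 and 228 in Hep3B, and PHF2, 69.5 and 278. Just outside lay TWF2-DT, 104 and 26.1, and SEC16B, 18.8 and 75, so genes next to the threshold hardly differed in their gap. Of 475 genes past the threshold that had further probe sets at or above the median, 431 had all of them in the same direction and 318 had all of them at 2 times or more. Of the 85 genes chosen to be named that were past the threshold and had such further sets, 20 had a set under 2 times or on the other side, and these sets are given beside the genes described below. A further set between 2 and 4 times in the same direction is given for some genes only.

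**Figure D1:**
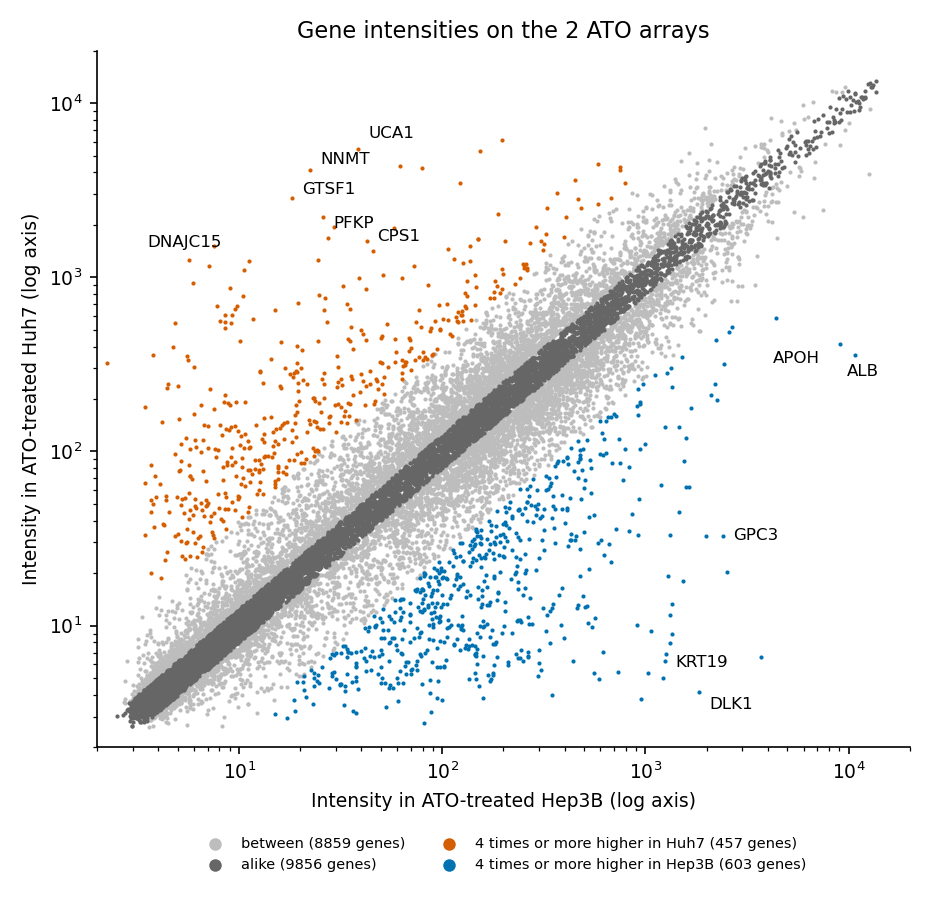
Intensity of each of 19775 genes on the ATO array of Hep3B (x axis, log) and of Huh7 (y axis, log), 1 point per gene. Orange marks the 457 genes at least 4 times higher in Huh7, blue the 603 at least 4 times higher in Hep3B, dark gray the 9856 alike genes and light gray the 8859 between.

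The genes of the secreted liver program were, where they differed by 4 times or more, mostly higher in ATO-treated Hep3B. Of 29 measured secreted plasma protein genes 7 were at least 4 times higher in Hep3B and none in Huh7. Past 4 times were 24.1%, beside 5.36% of all genes. The list's median log2 gap was -0.64 beside 0.03 over all genes. Albumin, ALB, read 358 in Huh7 and 10729.9 in Hep3B, a 30.01-fold gap, and 155 and 12803 on the controls. TTR, the carrier of thyroid hormone and retinol, read 32.8 and 1983 with ATO, and APOH, a phospholipid-binding plasma protein, 415 and 9057. All 3 had the same order on the controls, with TTR at 48.1 in Huh7 and 1704 in Hep3B and APOH at 313 and 9788. The heme carrier HPX was at 57.6 and 538 with ATO, and SERPINA7, which carries thyroid hormone, at 5.88 and 65.4. SERPINA3, an acute-phase protease inhibitor, was at 31.1 and 241. Not every abundant plasma gene was apart by its brightest probe set. The iron carrier TF read 5753 and 9113, a 1.58-fold gap, and SERPINA1 was 1.53 times higher in Huh7. By another set, however, SERPINA1 was past 4 times toward Huh7, at 3360 and 440 with ATO, a log2 gap of 2.93. A further set of SERPINA1 gave 0.98.

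ALB and AFP lie next to each other on chromosome 4 and were both at least 4 times higher in Hep3B. Their promoters carry binding sites for the liver factor HNF1, and the half-site GTTAAT was searched in the windows from 250 bases before to 50 bases after each start in RefSeq, build GRCh38.p14, on both strands. It was chosen after the values were seen. Of the 483 genes higher in Hep3B that had a window 8.7% held it, of the 365 higher in Huh7 6.03%, and of all 15384 genes with a window 5.04%. A match describes letters only. The 2 windows are shown for this neighboring pair, 5' to 3' on the gene's strand, with the half-site in capitals and its first base 61 bases before the start of ALB and 132 bases before that of AFP.
ALB, chr4:73404186-73404285, plus strand: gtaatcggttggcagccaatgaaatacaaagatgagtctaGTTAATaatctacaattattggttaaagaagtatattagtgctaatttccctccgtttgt
AFP, chr4:73436049-73436148, plus strand: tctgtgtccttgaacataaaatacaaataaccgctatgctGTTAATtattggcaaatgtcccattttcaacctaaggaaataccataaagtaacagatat

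Fetal liver genes gave some of the widest gaps. Of 15 measured oncofetal genes 5 were at least 4 times higher in Hep3B and 1 in Huh7, or 40% beside 5.36% of all genes. AFP, the fetal counterpart of albumin, read 62.1 in Huh7 and 1646 in Hep3B with ATO, and 91.8 and 3566 on the controls. GPC3, a cell-surface glypican used as an HCC marker, read 32.8 and 2397, a 73.1-fold gap. DLK1, a noncanonical NOTCH ligand of fetal hepatoblasts, read 4.16 and 1844, but its other probe set had a log2 gap of -0.48. PEG10, an imprinted gene of retroviral origin, was 9.07 times and the transcription factor SOX4 5.28 times higher in Hep3B, though 2 of the other probe sets of SOX4 gave log2 gaps of -0.80 and -0.42. GOLM1, a Golgi membrane protein released by HCC, went the other way, with 243 in Huh7 and 21.6 in Hep3B.

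Transcription factors of the liver followed the same side. Of 18 measured, 7 were at least 4 times higher in ATO-treated Hep3B, none in Huh7 and 2 were alike, with a median log2 gap of -1.25. The share past 4 times was 38.9%, beside 5.36% of all genes. CEBPA, which drives hepatocyte maturation, read 434 in Huh7 and 2214 in Hep3B. The pioneer factor FOXA1 read 22.1 and 113, and GATA6, of the early hepatic endoderm, 9.71 and 105. The orphan receptor NR2F1 had the widest gap of the list, from 4.95 to 135, with a dim value in Huh7. NR0B2, a corepressor in bile acid feedback, was 6.25 times and ONECUT2, a factor of liver development, 4.76 times higher in Hep3B. The medians of this list with ATO and on the controls, -1.25 and -1.09, were close to each other.

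Complement and coagulation genes past 4 times were mostly higher in Hep3B. Of 25 complement genes 8 were at least 4 times higher in Hep3B and 1 in Huh7, or 36% beside 5.36% of all genes. C4BPA and C4BPB, the chains of the C4b-binding protein that restrains complement, read 12.6 and 11 in Huh7 and 459 and 565 in Hep3B. Their neighbor CD55, which shields host cells from complement, read 13.2 and 171. These 3 genes stand in a row on the chromosome and were all dim in Huh7. MASP1, a protease of the lectin pathway, was 27.3 times, C2 9.78 times and CFB, of the alternative pathway, 7.60 times higher in Hep3B, over dim values in Huh7 for MASP1 and CFB. The other probe sets of MASP1 at or above the median gave log2 gaps of only -0.36, -0.73 and -1.48, and 1 other set of CFB 0.18. The other set of C2 gave -1.46. Of 25 coagulation genes 4 were at least 4 times higher in Hep3B and 1 in Huh7, or 20% of the list. SERPIND1, heparin cofactor, read 36.1 and 718, CPB2, a brake on clot lysis, 29.6 and 664, and factor VII, F7, 89.7 and 534. By its other probe set F7 had a log2 gap of -1.56. Factor VIII, F8, was the one higher in Huh7, at 62.9 against 10.6.

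The genes listed for lipoproteins had no gap of 4 times. None of 19 measured apolipoprotein and lipoprotein assembly genes differed by 4 times or more, and 9 were alike, 5 of them not dim. APOH, apolipoprotein H, was counted with the plasma proteins instead, and read 415 in Huh7 and 9057 in Hep3B. The alike share was 47.4%, beside 49.8% of all genes. Of all genes 5.36% differed by 4 times or more, so few would be looked for in so short a list. APOB read 4056 in Huh7 and 4026 in Hep3B with ATO. APOE, a ligand of lipoprotein receptors, read 1994 and 3202, and APOA2, of high-density lipoprotein, 3907 and 12596. The gaps of APOE and APOA2, 1.61-fold and 3.22-fold, were on the side of Hep3B and below the threshold.

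**Figure D2:**
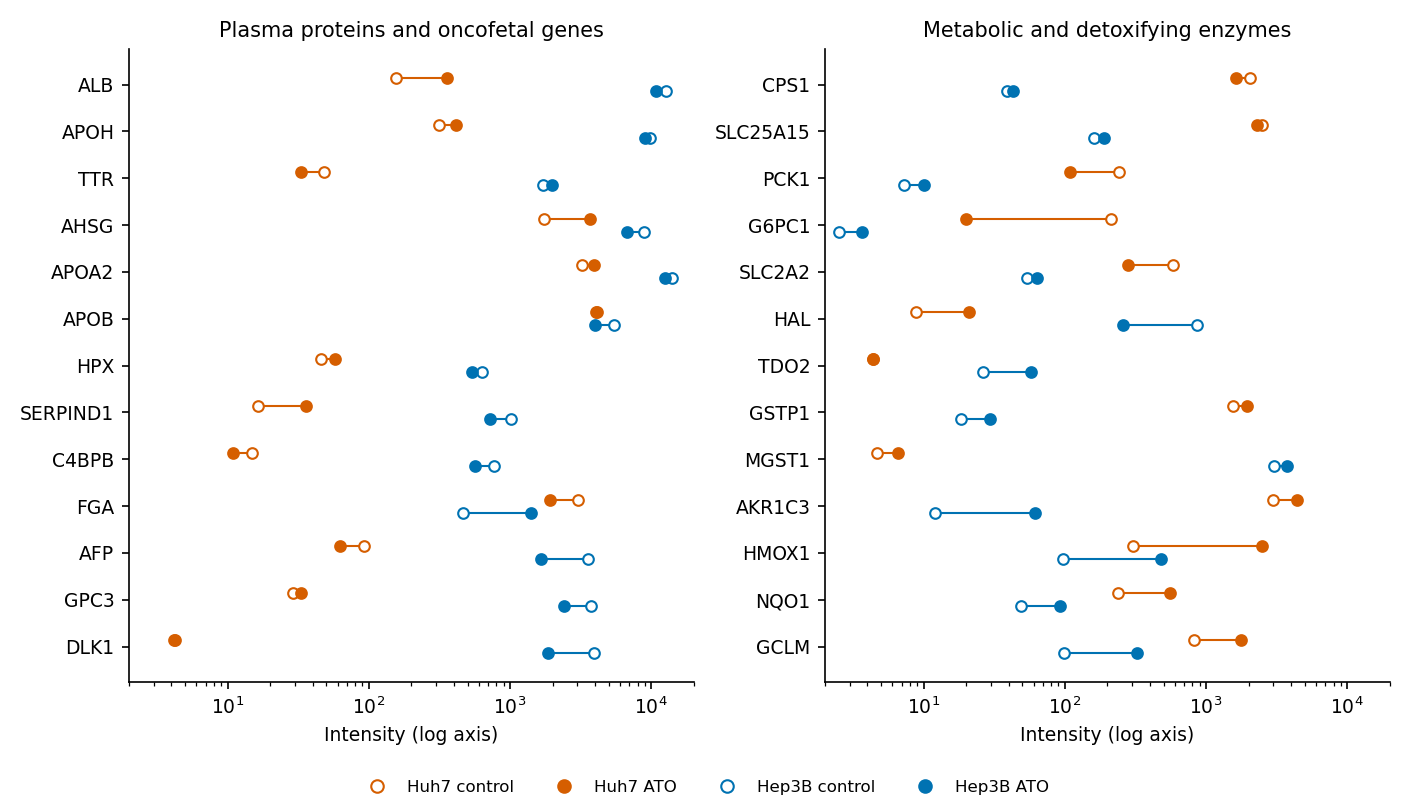
Intensity on a log axis of 26 liver genes on the 4 arrays, with Huh7 in orange, Hep3B in blue, open circles for the DMSO control and filled circles for ATO, 1 array each. For ALB, APOH, TTR and AFP both Hep3B arrays lie above both Huh7 arrays, and for CPS1, PCK1 and GSTP1 both Huh7 arrays lie above.

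Enzymes of amino acid and glucose metabolism were not on 1 side. Of 23 genes of the urea cycle and amino acid breakdown 3 were at least 4 times higher in Huh7 and 5 in Hep3B. That made 34.8% past 4 times, beside 5.36% of all genes. CPS1, the mitochondrial enzyme that starts the urea cycle, read 1621 in Huh7 and 42.6 in Hep3B, and SLC25A15, the ornithine carrier of the same organelle, 2305 and 189. NAGS makes the activator that CPS1 needs, and it went the other way with 11.4 in Huh7 and 97.7 in Hep3B. KYNU, an enzyme of tryptophan breakdown, read 1027 and 144, while TDO2, which starts that route, read 4.36 and 57.3. HAL, the first enzyme of histidine breakdown, read 20.9 and 257 with ATO and 8.81 and 862 on the controls, so its gap was narrower with ATO but still 12.3-fold. HPD, of tyrosine breakdown, was 14.4 times higher in Hep3B over a dim value in Huh7. Single steps of 1 route thus lay on opposite sides.

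Genes of glucose release were higher in Huh7 where they differed by 4 times or more. Of 14 measured genes 3 were at least 4 times higher in Huh7, none in Hep3B and 4 were alike. Past 4 times were 21.4%, beside 5.36% of all genes. PCK1, the committing enzyme of gluconeogenesis, read 109 in Huh7 and 10.1 in Hep3B, which is dim, and 243 and 7.22 on the controls. G6PC1, the glucose-6-phosphatase subunit, read 20.1 and 3.67 with ATO and 213 and 2.51 on the controls, dim on both Hep3B arrays. SLC2A2, the glucose carrier of hepatocytes, read 281 and 63.3, against 586 and 54.1. In all 3 the Huh7 value was lower with ATO than on its control and the line gap was narrower. SLC37A4, which carries glucose-6-phosphate to that phosphatase, read 488 and 372.

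Of 29 glycolysis and hypoxia genes 5 were at least 4 times higher in Huh7 and 3 in Hep3B, with a median log2 gap of 0.63. The share past 4 times was 27.6%, beside 5.36% of all genes. PFKP, the platelet-type phosphofructokinase, read 2212 in Huh7 and 25.9 in Hep3B. The hexokinases took opposite sides, with HK1 at 796 and 24.7 and HK2 at 96.6 and 597. SLC2A3, a high-affinity glucose carrier, read 3477 and 122 with ATO, and 3357 and 8.96 on the controls. Its gap was 28.4-fold with ATO and 375-fold on the controls, where the Hep3B value was dim. By its other probe sets the gap narrowed less, from a log2 of 5.60 to 4.38 and from 5.71 to 4.71. The glycolytic enzymes ALDOA and GAPDH were closer, at 6212 and 5109.5, and at 12370.5 and 9581. ALDOA was chosen after its values were seen.

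Conjugating enzymes and cytochrome P450 genes past 4 times lay mostly on opposite sides. Of 17 glucuronosyl- and sulfotransferases 8 were at least 4 times higher in Hep3B and none in Huh7. These 8 made 47.1% of the list, beside 5.36% of all genes past 4 times. SULT1E1, which sulfates estrogens, read 10.2 in Huh7 and 165 in Hep3B with ATO, and 13.02 and 44.3 on the controls. UGT2B4, a glucuronosyltransferase of bile acids, read 24.4 and 300.3, and SULT2A1, of steroids and bile acids, 12.8 and 155. Cytochrome P450 genes had 6 of 37 at least 4 times higher in Huh7 and 2 in Hep3B, or 21.6% past 4 times. CYP24A1, which breaks down active vitamin D, read 687 in Huh7 and 9.77 in Hep3B with ATO, against 57.7 and 9.25 on the controls. CYP1A1, an enzyme induced by aromatic pollutants, read 695 and 96.8. CYP24A1 was dim on both Hep3B arrays, and its Huh7 value was 11.9 times that of the control.

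Of 18 glutathione S-transferases 2 were at least 4 times higher in Huh7 and 3 in Hep3B, or 27.8% beside 5.36% of all genes. GSTP1, the form common in tumors, read 1947 in Huh7 and 29.4 in Hep3B. MGST1, a microsomal form, read 6.63 and 3725 from a probe set whose probes may also bind relatives of the gene, and its other probe sets gave log2 gaps from -9.24 to -2.68. GSTT1 read 7.20 and 245. For these 3 genes the control arrays gave gaps in the same directions, 85.02-fold, 644-fold and 34.8-fold. GSTO1, an omega-class form that reduces arsenic compounds, read 4377 and 4158, and was alike.

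NRF2 target genes that lay 4 times or more apart were mostly higher in Huh7. Of 33 measured 5 were at least 4 times higher in Huh7, 1 in Hep3B and 10 were alike, with a median log2 gap of 0.27 with ATO and 0.40 on the controls. The shares past 4 times and alike, 18.2% and 30.3%, stood beside 5.36% and 49.8% of all genes. HMOX1, the heme-degrading enzyme, read 2507 in Huh7 and 479 in Hep3B with ATO, and 303 and 96.5 on the controls. NQO1, a quinone reductase, read 559 and 91.9, and TXNRD1, thioredoxin reductase, 2781 and 1316. GCLM, the regulatory subunit of glutamate-cysteine ligase in glutathione synthesis, read 1772 and 325 with ATO, and 824 and 98.3 on the controls. The autophagy receptor SQSTM1 read 1074 and 967 and was alike, and SRXN1, which repairs peroxiredoxins, 486 and 267. SLC7A11, the cystine carrier, read 313 and 479 with ATO and 160.3 and 107 on the controls, so by this probe set the line with the higher value was Huh7 on the controls and Hep3B with ATO. Another set of SLC7A11 had log2 gaps of 0.57 on the controls and -0.81 with ATO, but by its remaining set Huh7 was higher on both, at 0.63 and 0.67.

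NRF2 binds the antioxidant response element, whose core TGACNNNGC was searched in the same promoter windows on both strands. It was present in 14.8% of all 15384 windows, in 11% of those of genes higher in Huh7 and in 13.5% of those of genes higher in Hep3B. Of the genes whose gap opened, from under 2 times on the controls to at least 4 times with ATO, 2 of 25 windows held it, of those that closed 3 of 40, and of those with a kept gap 13.7%. Elements further away were not searched. GCLM is shown because its window holds the core and its gap was 5.46-fold. The core is in capitals, read on the other strand, and its first printed base lies 34 bases before the start.
GCLM, chr1:93909431-93909530, minus strand: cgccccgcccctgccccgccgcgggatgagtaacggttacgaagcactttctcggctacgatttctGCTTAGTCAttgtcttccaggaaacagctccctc

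AKR1C genes, which encode reductases of steroids and aldehydes and belong to the NRF2 list, came together in part and by some probe sets. AKR1C1 read 6957 in Huh7 and 5089 in Hep3B with ATO, and 4228 and 75.3 on the controls. AKR1C2 read 4054 and 2045 with ATO, and 2469 and 34.8 on the controls. By these sets both were far lower in Hep3B on the controls and within 2 times of Huh7 with ATO. The other set of AKR1C2 gave a log2 gap of 1.08 with ATO, just over 2 times. A dimmer set of AKR1C1, the brightest whose name does not end in _x_at, read 247 and 57.5 with ATO and 83.9 and 19.5 on the controls, log2 gaps of 2.10 and 2.11, so by that set the gap was the same. AKR1C3 stayed apart, at 4378 and 61.6 with ATO and 2999.8 and 12.1 on the controls. AKR1C1 and AKR1C2 are near-identical in sequence, and their probe sets may bind each other's transcripts, so the share of each is uncertain.

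Among genes that take up, methylate or export arsenic, 2 of 18 were at least 4 times higher in Huh7, 3 in Hep3B and 7 were alike. The shares past 4 times and alike, 27.8% and 38.9%, stood beside 5.36% and 49.8% of all genes. ABCC2, which exports glutathione conjugates of arsenic into bile, read 640.0 in Huh7 and 126 in Hep3B. ABCC3, an exporter to the blood side, read 30.9 and 606, and AQP3, a channel for water, glycerol and arsenite, 103 and 943. ABCB1, the multidrug pump P-glycoprotein, read 5.37 and 178, and ABCC1 534 and 398. The other probe sets of ABCC3 gave log2 gaps from -2.48 to -0.18. The other set of ABCB1 gave -1.44, and those of AQP3 -1.67 and -1.04, all under 4 times. The 2 exporters ABCC2 and ABCC3 thus lay on opposite sides, with and without ATO. PML, the protein that arsenic degrades in acute promyelocytic leukemia, read 64.1 and 68.4.

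Metallothioneins bind metals through thiols, and none differed by 4 times or more by its brightest probe set. MT1X read 1337 in Huh7 and 340.1 in Hep3B with ATO, a 3.93-fold gap, and 413 and 92.05 on the controls, past 4 times. Its other set was past 4 times with ATO too, at 675 and 123. MT2A read 1739 and 519, and MT1G 270.3 and 144. MT1E went slightly the other way, with 113 and 146. The probe sets of all 4 may bind other members, since the family shares long stretches of sequence, and the gap of a single gene is uncertain. SLC30A10, an exporter of manganese and zinc, was the 1 gene of the 15 in this list past the threshold, at 43.6 and 246. That is 6.67% of the list, beside 5.36% of all genes.

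Heat shock genes had 1 gap of 4 times or more. Of 22, 12 were alike and 1, HSPA2, was at least 4 times higher in Huh7, at 556 against 27.2. These shares, 54.5% and 4.55%, were near the 49.8% and 5.36% of all genes. The mitochondrial chaperone HSPD1 read 8329.8 and 8411, and HSP90AB1 4226 and 4322. Genes of the integrated stress response had no member of 29 at 4 times or more, and a median log2 gap of -0.26 with ATO and 0.40 on the controls. ASNS, asparagine synthetase, read 1073 and 1526 with ATO and 904 and 561 on the controls. TRIB3, a pseudokinase of this response, read 409.6 and 1438, and its regulator DDIT3 343 and 306. The transcription factor ATF4, which is controlled largely by translation, read 3464 and 3402.

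The 12 genes with the widest gap toward Huh7 included DNAJC15, a mitochondrial cochaperone, at 1257 in Huh7 and 5.66 in Hep3B with ATO. BASP1, a membrane protein of growth cones, read 1512 and 7.50, and UCP2, a mitochondrial carrier, 1157 and 7.08. In these the Hep3B side was dim and the sizes of the ratios are uncertain. The other probe set of UCP2 gave a log2 gap of only 1.45. NNMT, the nicotinamide methyltransferase abundant in liver, read 4123 and 22.3, and the long noncoding RNA UCA1 5483 and 38.3, with both arrays above the median. GTSF1, a germline factor of transposon silencing, read 2866 and 18.2. SPINT2, a serine protease inhibitor, read 1094 and 10.5, and CEMIP, which breaks down hyaluronan, 543 and 4.83. TGFBR3, the TGF-beta co-receptor betaglycan, read 1237 and 11.2. For all of these both Huh7 arrays lay above both Hep3B arrays. Outside the 12, BMP6, a ligand that controls iron through hepcidin, read 578 and 11.7. IGFBP1, a liver-secreted binding protein of insulin-like growth factors chosen after its values were seen, read 4267 and 79.7.

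Cancer-testis antigens, germline genes that some tumors switch on, lay on the side of Huh7 where they were past 4 times. Of 23 genes 6 were at least 4 times higher in Huh7 and none in Hep3B, while 15 were dim on both ATO arrays. Past 4 times were 26.1%, beside 5.36% of all genes. MAGEA4 read 432 in Huh7 and 10.1 in Hep3B, MAGEA10 554 and 8.56, and PRAME 429 and 34.95. MAGEA6 read 1679 and 27.4, MAGEA12 1258 and 24.5, and CTAG2 683 and 7.80, all 3 with probes that may bind near-identical relatives. The control arrays gave gaps of the same order, such as 55.3-fold for MAGEA4 and 15.8-fold for PRAME.

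HOX genes, which set position along the body axis, had 6 of 26 at least 4 times higher in Huh7 and none in Hep3B, with a median log2 gap of 0.75. These 6 made 23.1% of the list, beside 5.36% of all genes past 4 times. HOXC6 read 230.4 in Huh7 and 4.41 in Hep3B, HOXC10 148 and 4.18, and HOXC9 48.7 and 6.89. HOXB7 read 78.6 and 11.3, and HOXD8 34.4 and 7.31. The Hep3B values of these 5 were dim, and 4 of the 6 higher genes were of the HOXC cluster.

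**Figure D3:**
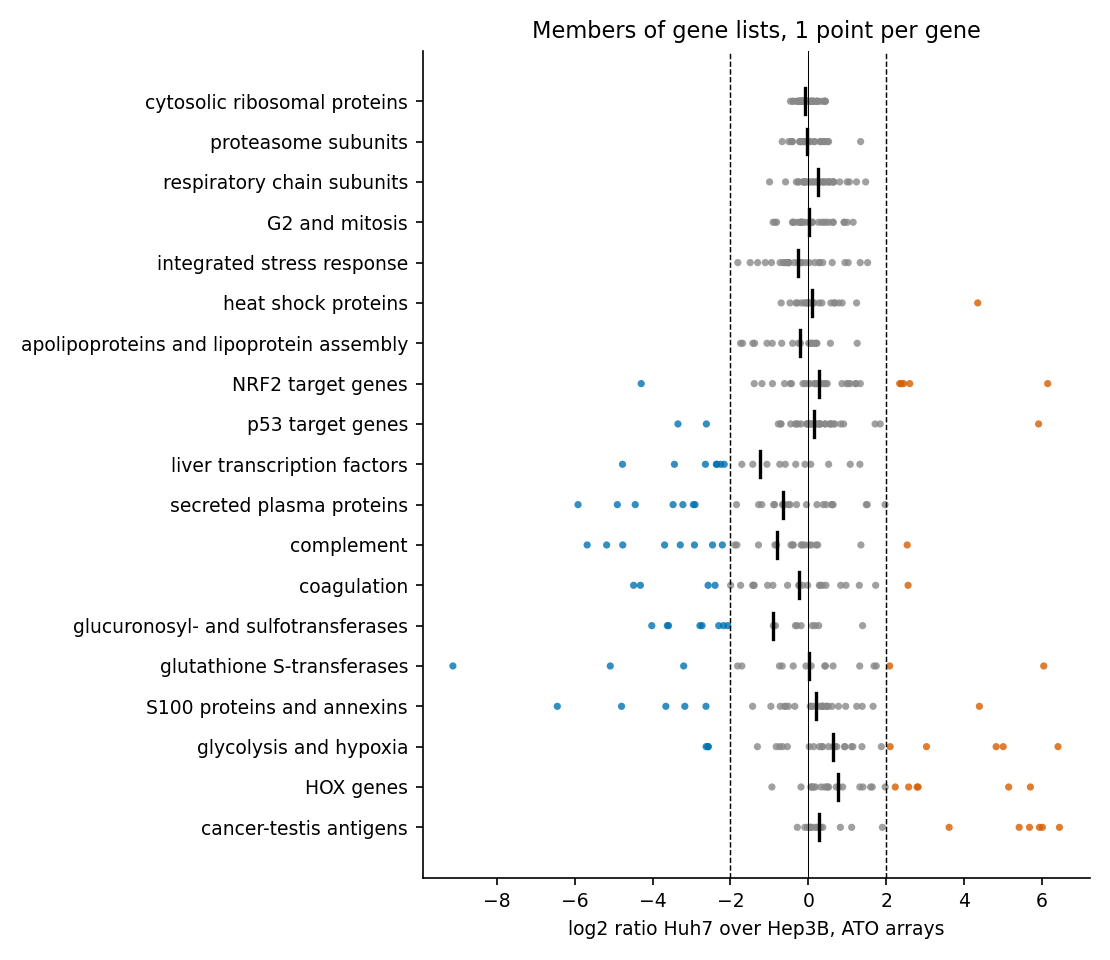
Log2 ratio of Huh7 over Hep3B on the ATO arrays (x axis) for the measured members of 19 gene lists, 1 point per gene, with a black bar at the median of each list and dashed lines at 4 times. Cytosolic ribosomal proteins lie between -0.46 and 0.44, liver transcription factors have 7 points past 4 times on the side of Hep3B (blue), and HOX genes 6 on the side of Huh7 (orange).

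The genes with the widest gap toward Hep3B included epithelial genes. KRT19, a keratin of bile duct cells and of some HCC, read 6.25 in Huh7 and 1251 in Hep3B with ATO. ESRP1, a splicing factor of epithelial cells, read 3.77 and 949.6, and MAL2, of apical transport, 5.31 and 1025. The epithelial keratins KRT8 and KRT18, by contrast, read 5508 and 3079.9, and 9701 and 5974, with probe sets that may bind other keratins too. CDH1, E-cadherin, read 682 and 1070.2. KRT19 and ESRP1 were dim on both Huh7 arrays, whereas KRT8, KRT18 and CDH1 were well above the median in both lines.

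Further genes of that side were PLCB1, a phospholipase of receptor signaling, at 4.98 and 1223, and the imprinted gene MEST at 6.86 and 1257. MFAP2, a microfibril protein, read 8.92 and 1354, GPX7, an endoplasmic reticulum peroxidase, 5.38 and 732, and ENPP2, which makes lysophosphatidic acid, 4.93 and 588. MBNL3, a splicing factor, read 20.2 and 2532, and DAB2, an endocytic adaptor, 9.27 and 1071. CDKN1C, an imprinted inhibitor of cyclin-dependent kinases chosen after its values were seen, read 11.4 and 1321. For all of these both Hep3B arrays lay above both Huh7 arrays. SPINK1, a trypsin inhibitor, read 17.9 and 1539 with ATO and 7.78 and 151 on the controls. UCHL1, a ubiquitin hydrolase of neurons also chosen after its values were seen, read 13.3 and 1344 with ATO and 17.4 and 147 on the controls. For SPINK1 and UCHL1 the Hep3B value with ATO was 10.2 and 9.16 times that of the control, which widened a gap already past 4 times.

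Of 30 S100 proteins and annexins, which bind calcium and membranes, 5 were at least 4 times higher in Hep3B and 1 in Huh7. Together they made 20%, beside 5.36% of all genes. S100A11 read 7.06 in Huh7 and 617 in Hep3B, S100A6 12.2 and 339, and S100A14 138 and 1247. ANXA1 went the other way, at 406 and 19.3 with ATO and 58.7 and 5.85 on the controls. S100P, a marker of several carcinomas, had been 4.22 times higher in Huh7 on the controls and was within 2 times with ATO, at 2604 and 1338. Both lines carried more S100P with ATO than on their controls, Huh7 4.38 times and Hep3B 9.49 times.

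Growth factor receptors past 4 times lay on both sides. Of 33 growth factor receptors 3 were at least 4 times higher in Huh7, 2 in Hep3B and 14 were alike. The shares past 4 times and alike, 15.2% and 42.4%, stood beside 5.36% and 49.8% of all genes. AXL, a receptor tyrosine kinase of mesenchymal-like tumor cells, read 1920.2 in Huh7 and 57.9 in Hep3B with ATO, against 1198 and 7.85 on the controls. FGFR2 read 6.51 and 242, and IGF1R 294 and 70.1. Other probe sets of FGFR2 ranged from -2.66 to 0.13 on the log2 scale, and those of IGF1R were at 1.05 and 0.99. MET, the receptor of hepatocyte growth factor, read 451 and 444, and ERBB3 1200.0 and 1199, and both were alike. EGFR read 1261 and 508, a 2.48-fold gap. Integrins had 1 of 19 past the threshold, 5.26% beside 5.36% of all genes. It was ITGA5, a fibronectin receptor, at 435 and 69.6.

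Signaling families were mostly mixed. Of 35 WNT ligands, receptors and feedback targets 3 were at least 4 times higher in each line, with LEF1, a transcription factor of the pathway, at 443 in Huh7 and 58.5 in Hep3B, and LGR5, a receptor of R-spondins, at 42.5 and 308. Of 33 TGF-beta and activin genes 3 were higher in Huh7 and 2 in Hep3B, among them FST, which binds activin, at 1210.1 and 126, and BMP2 at 47.01 and 238. Of 22 YAP and TEAD targets 3 were higher in Huh7 and 1 in Hep3B, with CCN1, a matrix signaling protein, at 1443 and 314, and NT5E, an ectonucleotidase, at 29.2 and 181. The other probe sets of NT5E at or above the median had log2 gaps between -0.25 and 0.15, and that of LEF1 0.04. In the WNT, TGF-beta and YAP lists 17.1%, 15.2% and 18.2% of the genes were past 4 times in either direction, beside 5.36% of all genes.

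Of 26 genes of the LIF, gp130 and JAK-STAT axis, which the study followed, 12 were alike and 2 were past 4 times. These shares, 46.2% and 7.69%, stood beside 49.8% and 5.36% of all genes. LIF, the cytokine, read 87.7 in Huh7 and 52.9 in Hep3B with ATO, JAK1, its kinase, 2027 and 904, and STAT3 319.8 and 239. OSMR, the receptor of oncostatin M, was one exception, at 563 and 8.03, a 70.2-fold gap over a dim value, and 577 and 10.4 on the controls. STAT6 was the other, at 29.5 and 172. IL6ST, the shared receptor subunit gp130, read 413 and 484. Among NF-kB genes, of which 1 of 18, or 5.56%, was past 4 times, RELA read 332 and 356, and NFKB1 103 and 164.

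Of 21 cancer stem cell markers 2 were at least 4 times higher in Huh7, 3 in Hep3B and 3 were alike. The shares past 4 times and alike, 23.8% and 14.3%, stood beside 5.36% and 49.8% of all genes. PROM1, which encodes CD133, read 721 in Huh7 and 2123 in Hep3B with ATO, a 2.94-fold gap. ABCG2, a drug efflux pump, read 328 and 65.6, and KLF4 253 and 40.8. The other probe set of KLF4 gave a log2 gap of 1.07. SOX2 read 29.5 and 31.03, and NANOG, dim in both lines, 11.2 and 8.62. Another set of SOX2 read 5.54 and 13.1 with ATO, both dim, and 8.31 and 63.8 on the controls. NOTCH1 read 43.1 and 99.7, and the survival gene BCL2 47.1 and 40.1. The markers lay on both sides.

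Of 36 p53 target genes 17 were alike, 47.2% beside 49.8% of all genes, with 1 at least 4 times higher in Huh7 and 2 in Hep3B. Past 4 times were 8.33%, beside 5.36% of all genes. PMAIP1, which promotes apoptosis, read 549 in Huh7 and 9.09 in Hep3B, which is dim. TP53INP1 read 81.1 and 827, with 1 other probe set of TP53INP1 at a log2 gap of -0.49, and PLK2, a kinase, 6.12 and 37.6. CDKN1A, the cell cycle inhibitor p21, read 353 and 188, a 1.88-fold gap, against 2.67-fold on the controls.

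Genes of cytosolic ribosomes were mostly alike. Of 52 cytosolic ribosomal protein genes 44, or 84.6%, were alike with ATO, beside 49.8% of all genes, and all 52 had a log2 gap between -0.46 and 0.44. RPL37A read 13001 in Huh7 and 12685 in Hep3B, and RPS10 12452 and 13076. Proteasome subunits had 15 of 27 alike, respiratory chain subunits 23 of 41 and the spliceosome core 15 of 33, with none at 4 times or more in these lists. PSMB1, a core subunit of the proteasome, read 5211 and 5456, and COX6A1, of complex IV, 5961 and 5327. These genes are bright, and 36.4% of all genes with an intensity of at least 1000 were alike.

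Cell cycle genes had no gap of 4 times. None of 30 genes of G2 and mitosis differed by 4 times or more, beside 5.36% of all genes. At that share so short a list would hold few such genes. Alike were 14, or 46.7%, beside 49.8% of all genes. The median log2 gap of the list was 0.03 with ATO and -0.53 on the controls. UBE2C, which marks mitotic proteins for destruction, read 1502 in Huh7 and 1729 in Hep3B with ATO, and 996 and 1882 on the controls. AURKA, a mitotic kinase, read 2600.0 and 1301, and PTTG1, securin, 4106 and 2656. Replication genes had none of 36 past the threshold, 9 alike and a median of -0.31, with MCM5, of the replicative helicase, at 559 and 1041. The summed intensity of the G2 and mitosis list with ATO was 22640.3 in Huh7 and 20645 in Hep3B, and on the controls 18305 and 25250.

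Most gaps past 4 times with ATO were also past 4 times without it. On the control arrays 555 genes were at least 4 times higher in Huh7 and 626 in Hep3B. Of all genes 861, or 4.35%, were past 4 times in the same direction with and without ATO, 382 higher in Huh7 and 479 in Hep3B. They made up 81.2% of the genes past the threshold with ATO and 72.9% of those past it on the controls. Across all 19775 genes the log2 gaps on the ATO and control arrays had a Pearson correlation of 0.91 and a Spearman correlation of 0.77, as a description, since genes of 1 array are not independent replicates. Of the 1380 genes past 4 times with or without ATO, the gap was smaller with ATO in 793 and larger in 587.

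**Figure D4:**
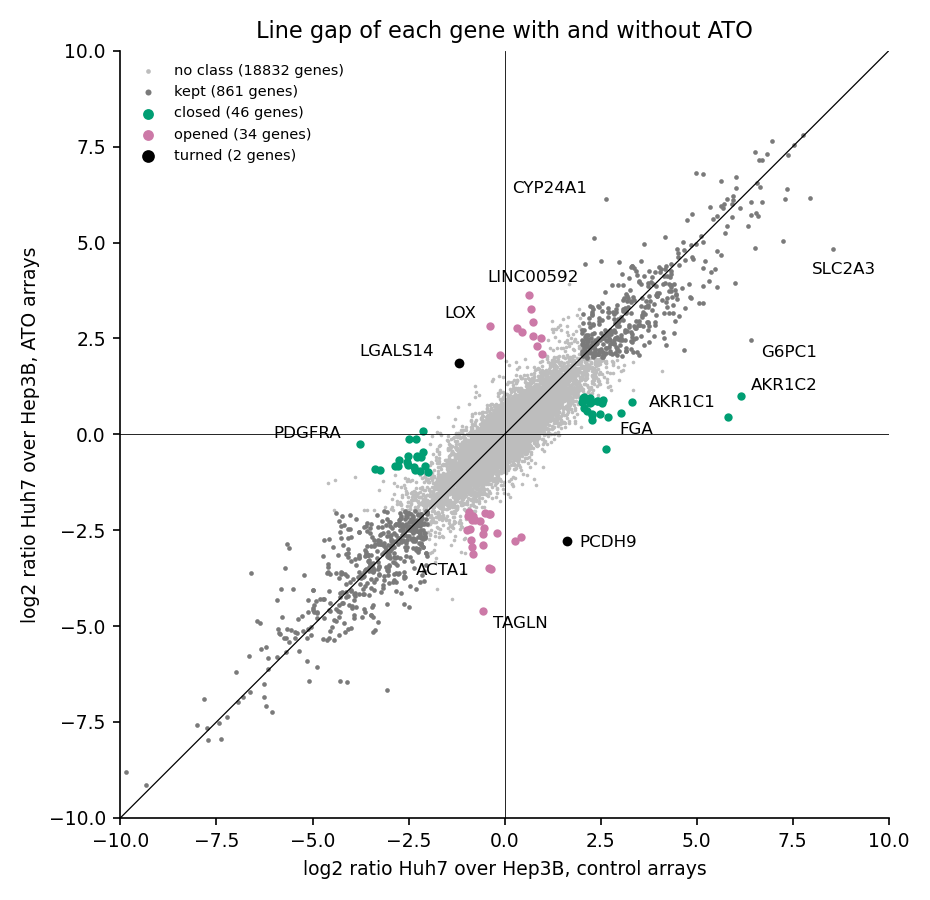
Log2 ratio of Huh7 over Hep3B on the control arrays (x axis) and on the ATO arrays (y axis), 1 point per gene for 19775 genes, with a diagonal of equal gaps. Dark gray marks 861 genes with a kept gap, green 46 whose gap closed, pink 34 whose gap opened and black 2 whose direction turned.

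A gap was called opened when it was under 2 times on the control arrays and at least 4 times on the ATO arrays, which held for 34 genes, 0.172% of all. In 23 of them Hep3B was the higher line with ATO and in 11 Huh7. The line that changed more against its own control was Hep3B in 23, higher with ATO in 20 of these, and Huh7 in 11, higher with ATO in 8. None of the 34 was dim on both ATO arrays. Beside this, 247 genes in Huh7 and 439 in Hep3B were past 2 times between ATO and control in either direction.

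The gap opened toward Hep3B for 2 genes known from contractile cells and for 2 secreted proteins. TAGLN, the actin-binding protein transgelin of smooth muscle, read 25.5 in Huh7 and 625 in Hep3B with ATO, and 32.1 and 47.6 on the controls. Its Hep3B value was 13.1 times that of the control, and the other probe sets of TAGLN gave log2 gaps with ATO from -4.28 to -0.39. ACTA1, skeletal muscle actin, read 6.85 and 77.9 with ATO, and 6.90 and 8.75 on the controls, 3 of the 4 values being dim. EFEMP1, a fibulin of the matrix, read 16.2 and 119 with ATO, and FSTL1, a secreted follistatin-like protein, 13.2 and 101. Their controls were 14.3 and 21.1, and 14.99 and 26.99. Of the 8 stellate cell and fibroblast markers none was past 4 times, and COL1A1, their fibrillar collagen, read 60.2 and 54.5 with ATO and 76.4 and 69.7 on the controls.

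The promoters of muscle genes often hold a CArG box, the site of serum response factor. The CArG box was searched on both strands after the values were seen. It was found in 1.22% of all windows and in 2 of 25 windows of opened genes, those of ACTA1 and AKAP12. The gap of ACTA1 opened toward Hep3B and that of AKAP12 toward Huh7, and TAGLN was not among the 2. The window of ACTA1 is shown with its box in capitals, the first base of it 97 bases before the start.
ACTA1, chr1:229434132-229434231, minus strand: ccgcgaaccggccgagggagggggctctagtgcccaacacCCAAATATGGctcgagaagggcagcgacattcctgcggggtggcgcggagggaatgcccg

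The gap also opened toward Hep3B for a ligand of immune cells and for 2 genes of fatty acid use. NCR3LG1, a ligand of a natural killer cell receptor, read 24.9 in Huh7 and 160.5 in Hep3B with ATO, and 27.8 and 20.6 on the controls. CD36, a fatty acid carrier, read 12.8 and 76.1 with ATO, and 16 and 18.4 on the controls. ACSL1, which activates fatty acids, read 35.2 and 155 with ATO, and 33.5 and 59.1 on the controls. In these 3 genes the Huh7 arrays stayed near each other and the ATO array of Hep3B stood above the rest. The other set of ACSL1 was already past 2 times on the controls, at a log2 gap of -1.50, and at -3.21 with ATO. NLRP1, an inflammasome sensor, read 11.1 and 96.4 with ATO. Other sets of NLRP1 had log2 gaps of -2.12 and -1.89 with ATO, and already -1.05 and -1.32 on the controls. VSIG1 and NIBAN1 read 36.2 and 31.8 in Hep3B with ATO and were dim on the other 3 arrays.

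Toward Huh7 the gap opened for LOX, which crosslinks collagen, at 279 in Huh7 and 39.6 in Hep3B with ATO, and 104 and 134 on the controls. The lines moved apart in opposite directions, Huh7 to 2.69 and Hep3B to 0.295 times its control. AKAP12, a scaffold of protein kinase A, read 2511 and 329 with ATO and 1773 and 1067 on the controls. Its other probe sets had log2 gaps between -0.22 and 3.38 with ATO. Those at 3.38, 3.28 and 3.02 were already at 1.07, 1.21 and 1.17 on the controls, over 2 times. By these sets the gap widened but did not meet the definition of opened. The noncoding RNA LINC00592 read 256 and 20.5 with ATO, and 29.3 and 19.01 on the controls. For LINC00592 the Huh7 ATO array stood alone above the other 3. CXCR4, the receptor of a chemokine, read 195 and 46.6 with ATO, and 60.6 and 65.5 on the controls. Its other sets gave log2 gaps of 1.70 and 1.22 with ATO, under 4 times. DUSP4, a phosphatase of MAP kinases, read 180.4 and 31.8, against 61.03 and 31.8, and its other sets gave log2 gaps of 2.33 and 1.42 with ATO. SRPX2, a secreted protein of vessels and tumors, read 94.6 and 13.9, CDA, cytidine deaminase, 42.6 and 6.71, and the fructose carrier SLC2A5 36.97 and 3.82, all 3 dim in Hep3B.

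A gap was called closed when it was at least 4 times on the control arrays and under 2 times on the ATO arrays, which held for 46 genes, 0.233% of all. On the controls 25 of them were higher in Huh7 and 21 in Hep3B. Hep3B changed more against its own control in 31, with 17 higher and 14 lower under ATO, and Huh7 in 15, with 7 higher and 8 lower. In 13 of the 46 both ATO arrays were dim, so that the gap closed at the lower end of the scale, and for 4 the probes may bind relatives of the gene. Of 14 closed genes chosen to be named that had further probe sets at or above the median, 7 had a set still at 2 times or more with ATO.

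The fibrinogen chains FGA and FGB, clotting proteins made by hepatocytes, were among the genes that closed. FGA read 1922 in Huh7 and 1403 in Hep3B with ATO, and 3008 and 461 on the controls. FGB read 762 and 590.3 with ATO, and 1012 and 209.5 on the controls. In both genes Huh7 was lower and Hep3B higher with ATO than on its control. AHSG, the plasma protein fetuin-A, read 3693 and 6728 with ATO and 1742 and 8928 on the controls, the lines again coming from opposite sides, while its other probe set kept a log2 gap of -1.65 with ATO, against -3.15. ASS1, of the urea cycle, read 2154 and 1347 with ATO and 3890.3 and 936 on the controls. AGXT, which detoxifies glyoxylate in hepatocytes, read 27.1 and 43.2, against 12.9 and 87.1.

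CCL20, a chemokine that draws lymphocytes, read 1690.1 in Huh7 and 1833 in Hep3B with ATO, and 742 and 3649.6 on the controls. Its receptor CCR6 closed too, at 8.80 and 9.53 with ATO, but was dim on all arrays except the Hep3B control, 41.1. LAMP3, a lysosomal protein, read 101 and 132 with ATO and 121 and 19.5 on the controls. PDGFRA, the receptor of platelet-derived growth factor, read 48.5 on the Hep3B control and was dim on the other 3 arrays. TMSB4X, which binds actin monomers, read 1938 and 2869 with ATO and 945 and 4585 on the controls. STC2, a secreted glycoprotein of the stress response, read 573 and 298, against 356 and 76.2. By the other probe set of STC2 the gap did not close, at 527 and 117 with ATO and 284 and 49.4 on the controls. SKIL, which restrains SMAD factors, read 358 and 538, against 240.1 and 1084, and ACSL4, which activates arachidonic acid, 30.5 and 46.1, against 32.5 and 158, with another set of ACSL4 still at a log2 gap of -1.51. STC2 was higher with ATO than on the control in both lines, and TMSB4X and SKIL were higher in Huh7 and lower in Hep3B.

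**Figure D5:**
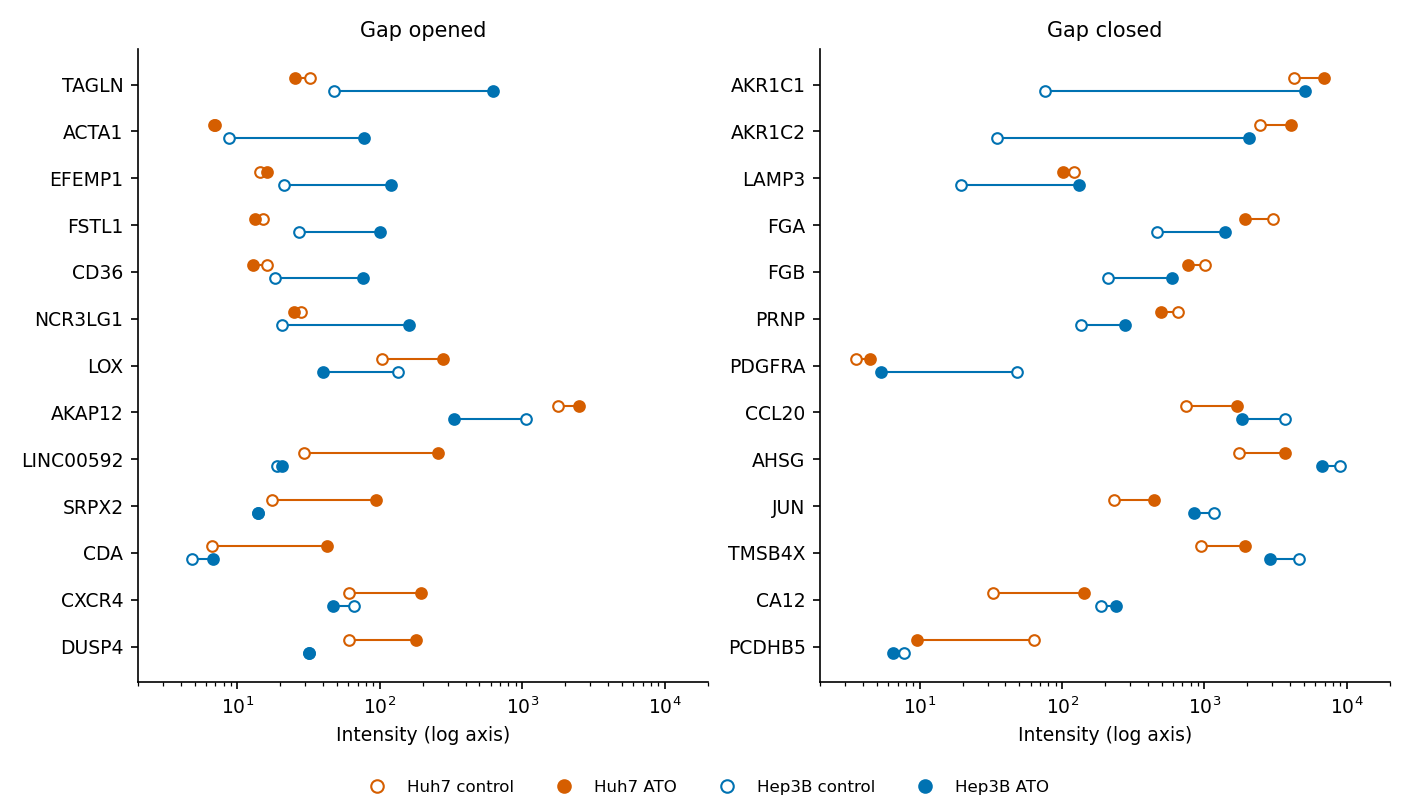
Intensity on a log axis of 13 genes whose line gap opened (left) and 13 whose gap closed (right), with Huh7 in orange, Hep3B in blue, open circles for the DMSO control and filled circles for ATO, 1 array each. For TAGLN the filled blue circle stands apart at 625, and for AKR1C1 the filled circles lie at 6957 and 5089 while the open blue one lies at 75.3.

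The line with the higher value turned, past 2 times in both directions, for PCDH9 and LGALS14. PCDH9, a protocadherin of cell adhesion, read 25.95 in Huh7 and 178 in Hep3B with ATO, and 86.5 and 28.3 on the controls. Its other probe sets gave log2 gaps with ATO from -2.73 to 1.33, on both sides of 0. LGALS14, a galectin known from placenta, read 85.5 and 23.4 with ATO, and 32.03 and 72.5 on the controls.

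Genes past 4 times with ATO sometimes stood in a row on the chromosomes. Of 19738 genes placed by RefSeq, 170 of the 1059 past the threshold, or 16.1%, lay in 80 runs of neighbors with the same direction. The longest run had 4 genes, SLC25A24, NBPF4, EEIG2 and HENMT1, all higher in Huh7. SLC25A24, a mitochondrial ATP carrier, read 356 in Huh7 and 3.78 in Hep3B with ATO, EEIG2 896 and 32.3, and HENMT1, a methyltransferase of small RNAs, 654 and 9.56. The control arrays gave gaps of 95.5-fold, 25.4-fold and 61.1-fold. In Hep3B the pumps ABCB4 and ABCB1 and their neighbor RUNDC3B formed a run of 3, with ABCB4 at 9.39 in Huh7 and 64.6 in Hep3B. CRIP1 and CRIP2, small zinc-binding LIM proteins, formed a pair higher in Hep3B, at 9.94 and 16.5 in Huh7 and 161 and 254 in Hep3B. The runs were counted after the values were seen and were not set against a chance arrangement.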

How the data were processed

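RNA of Huh7 and Hep3B cells, each with ATO and with DMSO, was hybridized to Affymetrix arrays, with 1 column of values per condition and line. Whether arrays were pooled into a column is not given in the sources used here. Per the methods, the authors used simpleaffy for Robust Multi-array Average preprocessing, a log transformation and normalization between arrays. The deposited table holds linear intensity values, 1 per probe set, from 2.24 to 14163.5, and the return from the log scale is not given in the sources used here. Normalization between arrays sets the arrays to a common distribution, so a shift of all genes in 1 line would not be seen.

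Of the 54675 probe sets 41097 named 1 gene, 1801 several and 11777 none in the platform annotation, which can be old. Each of 19775 genes was read from the set with the highest mean over the 4 arrays among those naming it alone. Ratios were taken from the deposited intensities, with thresholds of 4 times, a log2 of 0.32 for alike genes and 2 times for opened and closed gaps, and no test. The number of arrays, 1 a side, limits the precision. The steps recovered the planted gaps when tested on simulated data. Those gaps lay well past the threshold, with little noise, no floor at low intensity and no further probe sets. The simulation thus checked the code and not the calls on these arrays. Promoter windows were taken from RefSeq, build GRCh38.p14.

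The comparison and the 51 gene lists, 1184 of whose 1342 members were measured, were chosen with earlier results of these data known. Named genes were the 12 highest and 12 lowest ratios, the 12 opened and 12 closed genes with the largest change of gap (brighter array at or above the median, no probe set ending in _x_at, whose probes may bind relatives), all turned genes, up to 6 members per list with the largest ratio past 4 times or else the 3 brightest, and genes the study names. Further genes were chosen after their values were seen, among them AKR1C1, AKR1C2, FGB, AHSG, AKAP12, CXCR4, DUSP4, the members of chromosome runs and the examples of small gaps. Sex-linked marker transcripts were counted but not named. Alternatives were other ways to combine probe sets, leaving out sets ending in _x_at, leaving out dim genes, quantile normalization, centring each array on its median, an offset of 16 and other thresholds. Python 3.11.15, numpy 2.4.6, pandas 2.3.3 and matplotlib 3.10.9 were used. The other experiments of the study were not analysed here.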

Additional observations from a re-analysis of the deposited data

Results flagged for a closer look

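For PCDH9 and LGALS14 the line with the higher value differed between the ATO and the control arrays. The log2 gap of PCDH9, Huh7 over Hep3B, was -2.78 with ATO and 1.61 on the controls. That of LGALS14 was 1.87 with ATO and -1.18 on the controls. Each value rests on 1 array a side, and the difference between the gaps was not tested. Other probe sets of PCDH9 had log2 gaps with ATO on both sides of 0, from -2.73 to 1.33.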

How the results depend on the processing

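With a gene's probe sets averaged in place of the brightest taken, 317 genes were at least 4 times higher in ATO-treated Huh7 and 361 in Hep3B, and 17 gaps opened, 24 closed, 559 were kept and 1 turned. With an offset of 16 added to each intensity the counts were 293 and 354, with 21 opened, 25 closed, 510 kept and 1 turned. At a threshold of 2 times 1536 and 1702 genes differed, and at 8 times 211 and 286. With dim genes left out 4965 genes were alike. All 7 counts stayed within 1.5 times of those reported with the brightest set over the 2 ATO arrays, with sets ending in _x_at left out, with quantile normalization and with median centring, and so did the 2 counts with a gap change of 4 times as the criterion, 30 opened and 32 closed. A log2 gap changed sign for 2 named genes, CLDN11, 0.35 with the brightest set over the ATO arrays, and UGT2B15, 0.071 with sets ending in _x_at left out. Of 198 named genes past 4 times 73 were below it under at least 1 of 7 alternatives, 51 with the mean of probe sets and 47 with the offset, and the cause was not tested. With 1 array a side, no gap has a replicate check, and no background call was made for the dim side of a ratio. No paired analysis was possible because no result comes from a test and each group has 1 array.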

Other observations

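Interferon-stimulated genes past 4 times between the treated lines lay on both sides. Of 31 interferon-stimulated genes 3 were at least 4 times higher in ATO-treated Huh7, 1 in Hep3B and 13 were alike, so that 12.9% were past 4 times in either direction beside 5.36% of all genes. GBP2, a guanylate-binding protein, read 497 in Huh7 and 39.8 in Hep3B, and IFIT5, which binds foreign RNA, 68.02 and 15.02. IRF7, a factor that drives interferon genes, was the 1 higher in Hep3B, at 7.10 and 45.1. CXCL10, a chemokine that interferon induces, was counted in the chemokine list. It read 6.91 and 29.9 with ATO, and 8.97 and 145 on the controls. Of 20 genes of the major histocompatibility complex 9 were alike, and CD74, the invariant chain, was the 1 past 4 times, at 16.6 and 149. These shares, 45% and 5%, were near the 49.8% and 5.36% of all genes. B2M, the shared light chain, read 4877 and 4122.

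Genes of cholesterol and fatty acid synthesis had a median log2 gap of -0.81 with ATO and -0.21 on the controls. Of the 25 measured 20 were higher in Hep3B with ATO and 5 in Huh7 at any size. HMGCS1, an early enzyme of cholesterol synthesis, was the 1 past 4 times, at 274 in Huh7 and 1116 in Hep3B. That is 4% of the list, beside 5.36% of all genes. The other probe set of HMGCS1 gave a log2 gap of -1.58. Of 40 extracellular matrix genes 2 were at least 4 times higher in Huh7 and 3 in Hep3B, and 18 were dim on both ATO arrays. Past 4 times were 12.5%, beside 5.36% of all genes. THBS1, thrombospondin, read 42.2 and 529, COL5A2, a fibrillar collagen chain, 53.8 and 426, and FN1, fibronectin, 8242 and 4141. Another probe set of THBS1 gave a log2 gap of -0.68, and other sets of FN1 from 0.88 to 2.38.

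Bile acid genes had 1 of 21 at least 4 times higher in ATO-treated Huh7, SLC51B, a subunit of the basolateral exporter, at 245 in Huh7 and 50.5 in Hep3B, and 2 higher in Hep3B. Past 4 times were 14.3%, beside 5.36% of all genes. Of 32 epithelial junction genes 1 was past 4 times toward Huh7, CDH17, an intestinal cadherin, at 107 and 14.7, and 2 toward Hep3B. That made 9.38% of the junction list. CDH6, another cadherin, read 10.1 and 382, and CLDN11, a claudin, 4.62 and 31.5. Another probe set of CLDN11 read 39.9 and 31.2, a log2 gap of 0.35 on the side of Huh7. Of 26 chemokines and cytokines 11, or 42.3%, were alike and 7.69% were past 4 times. Of all genes 49.8% and 5.36% were. IL18 read 113 in Huh7 and 13.2 in Hep3B. CXCL8, interleukin-8, read 1294 and 881 from probes that may bind relatives. Of 23 mesenchymal markers 3 were past 4 times toward Huh7 and 1, TAGLN, toward Hep3B, the widest gap of the list at a log2 of -4.61. That made 17.4% of the markers. Among the 3 was ZEB1, a repressor of epithelial genes, at 187 and 46.3, and VIM, vimentin, was alike at 2880.3 and 2578.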
